A study of Mus musculus with 4 samples.

Results

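The regions described here are small clusters of reads, taken as minor cleavage sites, beside a dominant site. The assay, 3'READS, isolates fragments that carry a poly(A) tail and maps where the RNA was cut. Reads of its 2 libraries were summed by position, and positions on 1 strand were chained into a cluster while the gap was at most 24 nt. A member is an autosomal cluster of 3 to 29 reads whose most used position lies 25 to 400 nt from the most used position of a cluster with 1000 or more reads on the same strand. There were 807 members among the 56206 clusters of 3 or more reads, which is 1.44%. Members were thus chosen by their pooled read count and their distance, and the side, the split between libraries and the CLIP signal played no part in the choice. They lay beside 576 of the 1408 autosomal dominant clusters. Of the members, 498 were upstream of the dominant site along the RNA and 309 downstream.

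Cleavage and polyadenylation form the 3′ end of nearly all mRNAs. A multiprotein complex recognises an upstream hexamer, mostly AAUAAA, and U- or GU-rich sequence downstream, cuts the RNA between them and adds the poly(A) tail. The cut often varies by a few nucleotides, and many genes carry additional, weaker sites near the main one, so that a cell makes a series of mRNAs that differ in the length of their last exon. The U- and GU-rich element is contacted by CstF64, a subunit of the cleavage stimulation factor.

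Both 3'READS libraries were made from 1 commercial mix of RNA from 11 mouse cell lines. The first was captured with CU5T45, an oligo that joins a stretch of U to a long stretch of T and allows stringent washing. The second was captured with regular oligo(dT)10-25 beads. CstF64 was mapped by CLIP-seq in the mouse myoblast line C2C12 while it proliferated, in replicates 1 and 2. In this assay UV light joins protein to RNA, RNase T1 trims the RNA, and here complexes of 85 to 150 kDa were recovered. The sources used here do not name the lines of the mix.

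The libraries held 6738355 reads (CU5T45) and 3482826 reads (oligo(dT)10-25), and the CLIP files 1101047 and 1352122 distinct alignments. There was 1 library per oligo, so intervals cover counting error only, reads copied by PCR without molecular identifiers are not independent molecules, and no p-value is given. At 61 members with 10 or more CLIP alignment midpoints over both replicates, the chi-square between replicates, divided by its degrees of freedom, was 0.113. The replicates thus differed by less than sampling noise and were counted as 1 sample. CLIP values are given per replicate below, and agreement between the replicates adds no independent support. Members beside 1 dominant site share a locus and are not independent, and 406 members (50.3%) shared their dominant site with another member. Sites are named by chromosome and position in mm9, the build of the files. Gene names, poly(A) signals and flanking sequence were not analysed here, since the annotation at hand is of another build. Whether each small cluster is a cleavage site of its own was thus not tested.

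Minor clusters gathered on the strand of the dominant site and more on its upstream side. Upstream members made up 61.7% of all members (95% exact interval 58.3 to 65.1). Within the same distances, the opposite strand held 29 clusters of 3 to 29 reads on the upstream side and 46 on the downstream side. Members therefore outnumbered opposite-strand clusters 17.2-fold upstream (11.8 to 25.9) and 6.72-fold downstream (4.92 to 9.37). Free sequence was not more plentiful upstream. Stretches free of clusters of 30 or more reads made up 91.2% of the upstream and 94.3% of the downstream windows, which gives 1.03 upstream and 0.619 downstream members per 1000 nt of free window.

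Members were densest close to the dominant site. On the upstream side there were 2.04 members per nt of distance, summed over all dominant sites, at 51 to 100 nt, 1.73 from there to 200 nt, 1.14 to 300 nt and 0.830 to 400 nt. On the downstream side there were 1.16, 1.01, 0.850 and 0.560 at the same distances. From 25 to 50 nt the density was 1.00 upstream and 0.346 downstream, where the chaining itself takes positions into the dominant cluster, and the nearest members lay at 31 nt upstream and 33 nt downstream. The median distance was 166 nt upstream (quartiles 96.2 and 259) and 183 nt downstream (107 and 271). Past the limit of the rule the density went on falling with distance. Clusters of 3 to 29 reads numbered 132 per 100 nt upstream at 25 to 400 nt, 51.8 from there to 1000 nt, 29.3 to 2000 nt and 12.4 to 5000 nt, against 82.2, 36.2, 21.4 and 7.50 downstream.

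**Figure D1:**
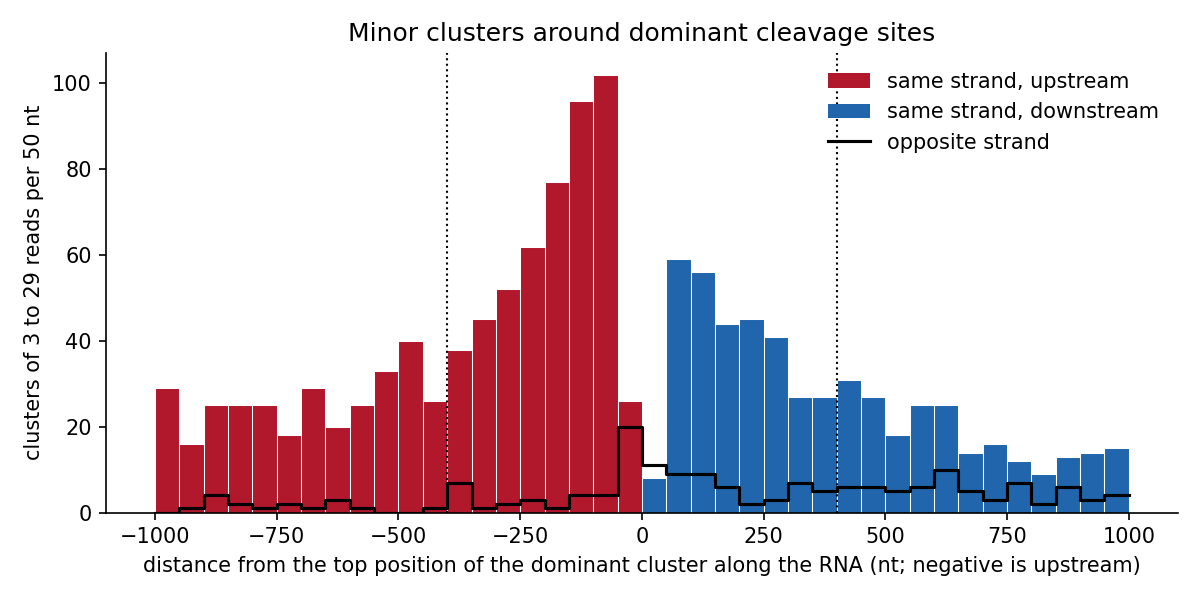
Number of clusters of 3 to 29 reads per 50 nt (y axis) by the distance of their most used position from that of the nearest dominant site along the RNA (x axis, negative upstream), for the strand of the dominant site (bars, upstream and downstream in 2 colours) and the opposite strand (line), with dotted lines at 400 nt. The highest bar, 102 clusters, lies 100 to 50 nt upstream, and the highest downstream bar, 59 clusters, 50 to 100 nt downstream.

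The upstream share was highest among the smallest clusters. Among members of 3 or 4 reads, 211 lay upstream and 91 downstream, which is 69.9% upstream (64.3 to 74.99). The share was 59.3% (53.1 to 65.3) at 5 to 9 reads, with 156 upstream and 107 downstream, and 54.1% (47.6 to 60.5) at 10 to 29 reads, with 131 and 111. Among clusters outside the member range, those of 1 read were 75.1% upstream (72.5 to 77.6; 874 and 290) and those of 2 reads 75.5% (70.7 to 79.9; 271 and 88). Clusters of 30 to 99 and of 100 to under 1000 reads were 52.2% (44.1 to 60.3) and 52.8% (43.7 to 61.8) upstream. With both libraries pooled, the interval thus lay above 50% for each class up to 9 reads and included it for each class of 10 reads or more.

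Each library chained alone also had a higher upstream share at 1 read than at 10 to 29 reads, without a steady order between. Clusters of 1 read were 74.8% upstream in the CU5T45 library (71.97 to 77.5) and 72.1% in the oligo(dT)10-25 library (68.7 to 75.4), and those of 10 to 29 reads 54.0% (46.8 to 61.0) and 53.7% (45.3 to 62.0). At 3 or 4 reads the libraries differed, with 72.1% (66.3 to 77.5) in the CU5T45 library and 54.6% (47.1 to 62.0) in the shallower oligo(dT)10-25 library. At 5 to 9 reads they had 54.1% (47.3 to 60.9) and 53.4% (45.0 to 61.6), and both intervals included 50%, unlike that of the pooled libraries. Farther out, the pooled share was also higher at 1 read than at 10 to 29 reads. Between 400 and 2000 nt, clusters of 1 read were 70.5% upstream (68.3 to 72.7) and those of 10 to 29 reads 56.0% (50.5 to 61.3). On the opposite strand, where numbers are small, the upstream share was 45.4% at 1 read (35.2 to 55.8), 77.3% at 2 (54.6 to 92.2), 61.9% at 3 or 4 (38.4 to 81.9), 35.0% at 5 to 9 (15.4 to 59.2) and 26.5% at 10 to 29 (12.9 to 44.4). At 10 to 29 reads the opposite-strand share was thus below 50%, and its interval overlapped that at 1 read. It lay below the interval at 2 reads, a class of 17 upstream and 5 downstream clusters.

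**Figure D2:**
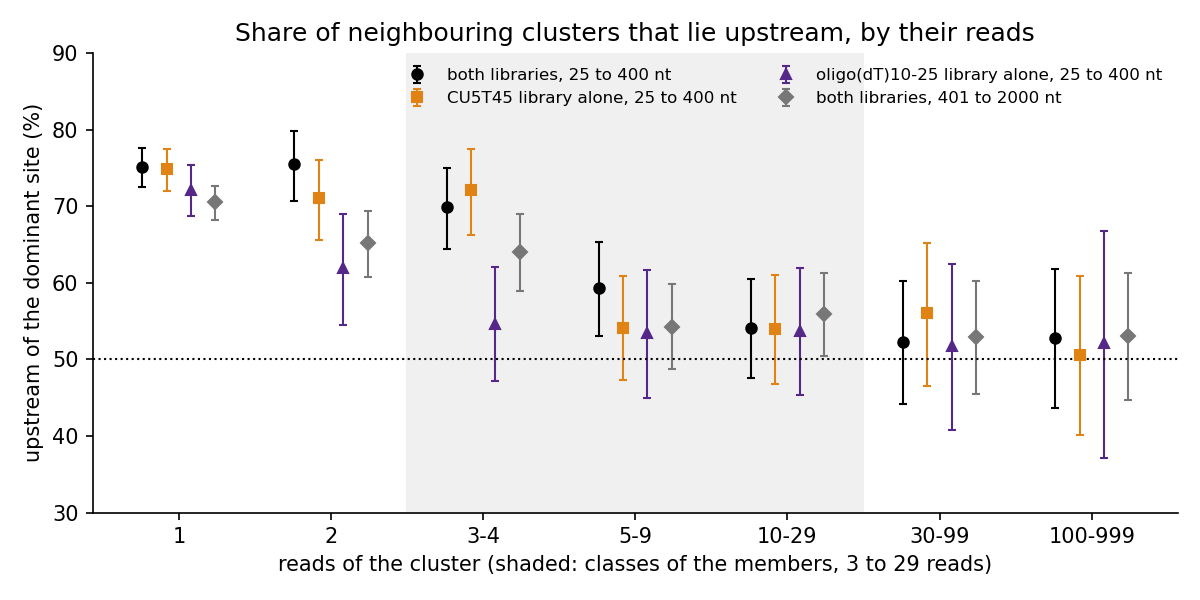
Share of neighbouring clusters that lie upstream of the dominant site (y axis, percent, points with 95% exact binomial intervals) by the reads of the cluster (x axis), for both libraries pooled and each library chained alone at 25 to 400 nt, and for both libraries between 400 and 2000 nt. The pooled share is 75.1% at 1 read and 54.1% at 10 to 29 reads, and the dotted line marks 50%.

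Members were a small part of the RNA ends at their locus. Their 6713 reads made up 0.0657% of all 3'READS reads, against 63.8% for the 1408 dominant clusters. By the choice of members these levels are a description. Upstream members had a median of 5 reads, or 0.234% of the reads of their dominant site (quartiles 0.104 and 0.435), and downstream members 7 reads, or 0.315% (0.138 and 0.621). At the lower limit of reads, 126 upstream and 55 downstream members had 3 reads, while 271 and 88 clusters just outside had 2. At the upper limit, 5 and 8 members had 28 or 29 reads, and 5 and 5 clusters just outside had 30 or 31. At the limit of distance, 6 upstream and 8 downstream members lay in the last 10 nt inside it, and 5 and 3 clusters in the first 10 nt beyond it.

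Larger dominant sites more often had a member. A member lay beside 52.3% of the dominant sites of 10000 or more reads (42.6 to 61.8; 58 of 111) and beside 38.7% of those of 1000 to under 2000 reads (35.1 to 42.4; 272 of 703). The number of upstream members per dominant site was 0.306 at 1000 to under 2000 reads, 0.361 from there to 5000, 0.393 to 10000 and 0.577 at 10000 or more. The number of downstream members was 0.220, 0.192, 0.25 and 0.288. Upstream members alone were found at 316 dominant sites, downstream members alone at 174 and both at 86. The limit of 3 reads is the same at every dominant site, and its part in this was not tested.

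The 6 autosomal dominant sites with most reads had between 0 and 3 members each. The largest, on the minus strand of chromosome 15 at 100504852 with 339820 reads, had 1 member 206 nt upstream and 1 member 68 nt downstream, each with 4 reads from CU5T45 and 3 from oligo(dT)10-25. The upstream one was spread over 6 positions across 36 nt, and the downstream one lay at a single position. The site on chromosome 15 at 78021908, minus strand, with 154858 reads, had 1 upstream member of 3 reads at 207 nt and 2 downstream members at 114 and 153 nt. The downstream members had 9 and 15 CU5T45 reads and 12 and 5 oligo(dT)10-25 reads. The site on chromosome 2 at 164602660, minus strand, with 73852 reads, had only upstream members. The member at 334 nt had 20 CU5T45 and 9 oligo(dT)10-25 reads at 23 positions across 121 nt, and that at 163 nt 12 and 7 reads at 10 positions across 41 nt. The site on chromosome 11 at 67073943, plus strand, had 1 upstream member of 3 reads at 246 nt, and those on chromosome 7 at 20274829 and chromosome 5 at 90905627 had 0 members.

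No dominant site had more than 4 members. Of the 9 sites with 4, the largest lay on the minus strand of chromosome 3 at 10204341, with 5884 reads. Its upstream member at 133 nt had 14 CU5T45 reads and 1 oligo(dT)10-25 read, and its downstream members at 81, 153 and 254 nt had 6 and 0, 2 and 1, and 10 and 7 reads. The site on chromosome 8 at 88062527, minus strand, had upstream members at 96, 172 and 366 nt with 10, 12 and 3 reads and a downstream member at 366 nt with 11 reads. The site on chromosome 2 at 121978608, plus strand, had 2 members on each side. Its upstream member at 188 nt had 6 CU5T45 and 0 oligo(dT)10-25 reads, with an interval of the ratio that includes 1, and that at 127 nt had 1 and 7 reads (13.5-fold lower, 1.74 to 610). The sites on chromosome 17 at 13208219 and chromosome 3 at 144260640, both plus strand, each had 3 upstream members of 3 to 5 reads and 1 downstream member, of 9 and 3 reads. The site on chromosome 6 at 78378658, plus strand, had upstream members of 6 and 4 reads and downstream members of 7 and 11 reads.

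Upstream members were wider than downstream members at the same number of reads. At 10 to 29 reads the median span was 22 nt upstream (quartiles 7 and 37.5), against 9 nt downstream (5 and 16.5) and 8 nt (4 and 16) at autosomal clusters of this size over 400 nt from any dominant site. At 5 to 9 reads it was 16, 8 and 5 nt, and at 3 or 4 reads 11, 5 and 3 nt. In the median upstream member of 10 to 29 reads, 53.8% of the reads fell on its top position, against 69.2% in the downstream members and 72.7% in the distant clusters. Members at a single position made up 14.3% upstream (11.3 to 17.6) and 20.1% downstream (15.7 to 25.0), against 31.3% (30.8 to 31.8) of the 37563 distant clusters. With a chaining gap of 12 nt, the median span at 10 to 29 reads was 12 nt upstream and 7 nt downstream.

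The top position of upstream members was less often the same in both libraries, though the intervals of the sides overlapped. Among members with at least 3 reads from each oligo, both libraries had the same top position in 57.5% upstream (48.6 to 66.0; 77 of 134) and 73.3% downstream (64.5 to 80.99; 88 of 120), against 73.4% (72.6 to 74.2) of distant clusters. A cluster at a single position has the same top in both libraries by construction, and narrow clusters leave less room to differ. This share is thus not independent of the width given above. Upstream members were seen with both oligos in 73.7% (69.6 to 77.5; 367 of 498) and downstream members in 85.8% (81.4 to 89.5; 265 of 309). Over all autosomal clusters of 3 to 29 reads this was 78.9%, but upstream members also had fewer reads. At 3 or 4 reads the shares were 58.3% (51.3 to 65.0) upstream, 67.0% (56.4 to 76.5) downstream and 60.8% (59.9 to 61.5) at distant clusters, with overlapping intervals. At 5 to 9 reads the shares were 76.9% (69.5 to 83.3) upstream, 90.7% (83.5 to 95.4) downstream and 84.2% (83.5 to 84.9) at distant clusters. At 10 to 29 reads they were 94.7%, 96.4% and 96.9%, with overlapping intervals. Seen with CU5T45 alone were 113 upstream and 36 downstream members, and with oligo(dT)10-25 alone 18 and 8. The CU5T45 library was the deeper one, and at equal depths 69.6% of all members were seen with both oligos, against 78.3% at full depth.

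**Figure D3:**
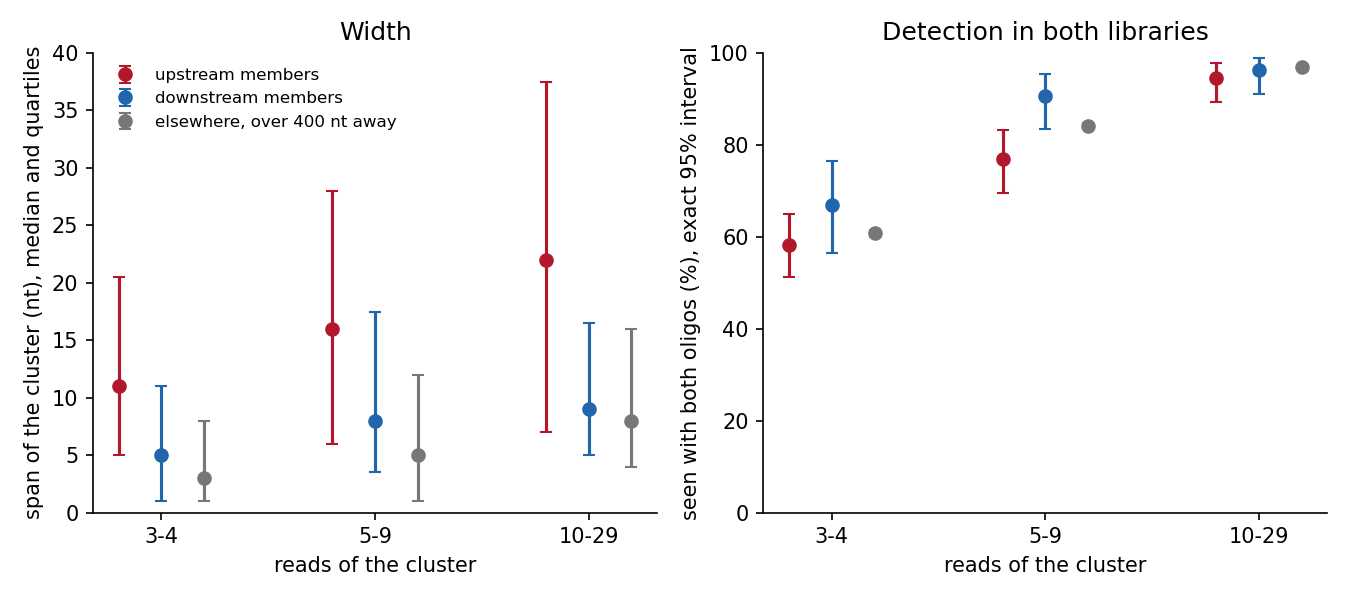
Left, span of clusters in nt (y axis, median and quartiles), and right, share of clusters seen with both oligos (y axis, percent, 95% exact interval), each by the reads of the cluster (x axis), for upstream members, downstream members and distant clusters. Upstream members are the widest in each read class, with a median of 22 nt at 10 to 29 reads, against 9 nt for downstream members.

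The oligos captured members in nearly equal shares. The ratio used is a member's share of the CU5T45 library over its share of the oligo(dT)10-25 library. Upstream members together had 2587 reads from CU5T45 and 1253 from oligo(dT)10-25, which gives 1.07 (0.997 to 1.14), and downstream members 1887 and 986, which gives 0.989 (0.915 to 1.07). The intervals of both sides overlapped and included 1. The ratio was lower, 0.857 (0.851 to 0.864), at distant clusters of 3 to 29 reads, and it was 1.08 (1.08 to 1.08) at all dominant sites. The 402 dominant sites beside upstream members had 1.055 (1.052 to 1.058), which the interval of these members included. The 260 beside downstream members had 1.193 (1.189 to 1.197), and the interval of these members lay below it. In these sums the dominant sites with most reads weigh most, while a member adds at most 29 reads. The part of this weighting was not tested. For upstream members the side of 1 depended on which neighbours counted as dominant, with 0.947 (0.899 to 0.997) from 500 reads and 1.19 (1.03 to 1.37) from 5000 reads. With each position counted once the ratio was 1.41 (1.28 to 1.54) upstream and 1.07 (0.945 to 1.20) downstream. By distance the ratio moved in no one direction. Upstream, the ratio ran between 0.955 at 51 to 100 nt and 1.14 between 100 and 200 nt, and downstream between 0.865 at 51 to 100 nt and 1.38 at 25 to 50 nt, where 9 members had 55 reads in all (40 and 15; interval 0.745 to 2.69). Among the smallest members, of 3 or 4 reads, the sides differed, with 1.21 upstream (1.03 to 1.43) and 0.741 downstream (0.587 to 0.937). At 10 to 29 reads the ratios were 1.01 (0.924 to 1.11) and 1.02 (0.923 to 1.12).

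Summed member ratios did not follow the order of their dominant sites' ratios. Of the upstream members, 58 lay beside 46 dominant sites with a ratio under 0.5, which together had 0.295 (0.293 to 0.297). With 322 reads from CU5T45 and 117 from oligo(dT)10-25, these members had a ratio of 1.42 (1.15 to 1.77). Leaving out each of the 46 sites in turn gave ratios of 1.33 to 1.51, and members of 10 to 29 reads alone gave 1.28, with an interval that includes 1 (0.967 to 1.71). In reads, upstream members had 2.71 CU5T45 reads per 1000 CU5T45 reads of these dominant sites, and 0.572 oligo(dT)10-25 reads per 1000 of theirs. Downstream, 17 members beside 15 such sites had a ratio of 0.829 (0.599 to 1.15), against 0.414 (0.409 to 0.420) for the sites. At the other end, 39 upstream members lay beside 31 dominant sites with a ratio of 2 or more, and had 0.912 (0.722 to 1.16), against 3.01 (2.97 to 3.05) for the sites. For 36 downstream members beside 31 such sites the ratio was 0.922 (0.751 to 1.14), against 2.48 (2.44 to 2.52).

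**Figure D4:**
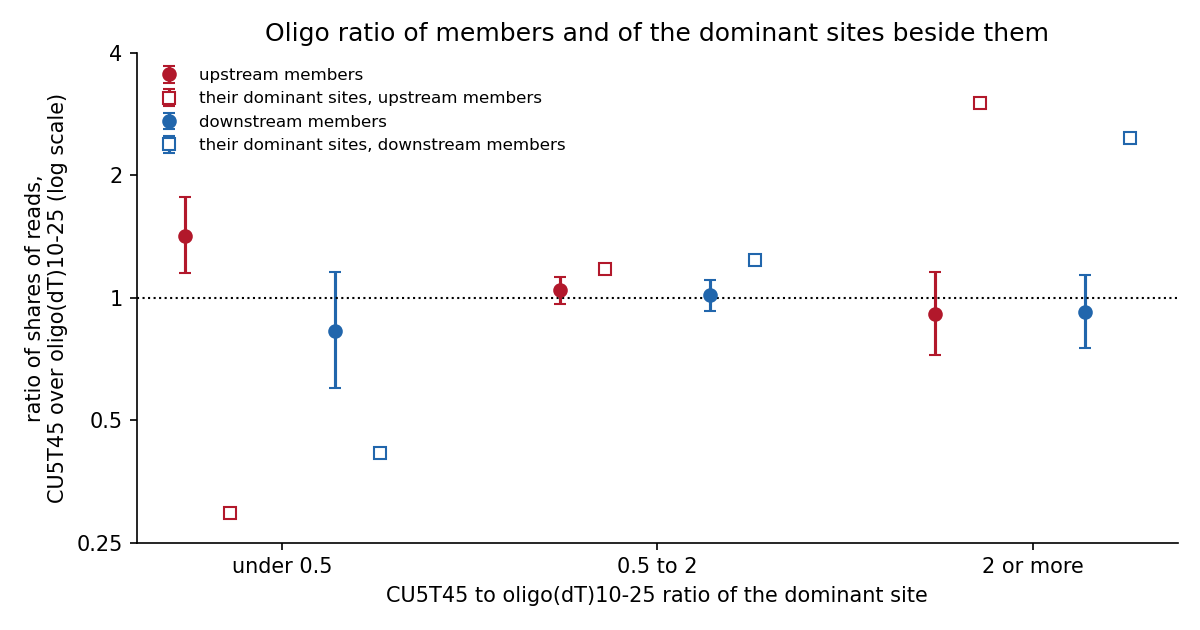
Ratio of shares of reads, CU5T45 over oligo(dT)10-25 (y axis, log scale), of upstream and downstream members (filled points) and of the dominant sites beside them (open squares), by the ratio of the dominant site (x axis), with exact 95% intervals that cover counting error only. Dominant sites run from 0.295 to 3.01, and members lie between 0.829 and 1.42.

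Most single members of 10 to 29 reads had an interval of the ratio that includes 1. The interval lay above 1 at 12 of 131 upstream (9.16%) and 10 of 111 downstream members (9.01%), beside 5.30% of all autosomal clusters of 10 to 29 reads. It lay below 1 at 12 upstream (9.16%) and 9 downstream members (8.11%), beside 12.9% of all such clusters. A ratio of 4 or more was also reached by 5 upstream (3.82%) and 4 downstream members (3.60%), beside 2.75%. A ratio 4-fold or more lower in CU5T45 was reached by 9 upstream (6.87%) and 5 downstream members (4.505%), beside 8.80%. For these ratios a count of 0 was set to 3 reads. By this floor, 0 of the 9 members with an interval above 1 and 0 oligo(dT)10-25 reads, which had 11 to 16 CU5T45 reads, reached 4-fold. A member with 0 CU5T45 reads and 10 or more oligo(dT)10-25 reads does reach 4-fold lower with the same floor, as CU5T45 was the deeper library. The counts of 4-fold higher and 4-fold lower members are thus not comparable with each other.

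With that floor, which lowers the rank of members with 0 reads, the members with the highest ratios had 1 to 3 oligo(dT)10-25 reads. Upstream, the member on chromosome 11 at 100232003, minus strand, was read 23 times with CU5T45 and 1 time with oligo(dT)10-25 (ratio 11.9, 95% interval 1.93 to 490), 71 nt from a dominant site whose own ratio was 0.381. Those on chromosome 1 at 174824253, minus strand, and chromosome 9 at 44210759, plus strand, were each read 20 times and 1 time (10.3, 1.65 to 429), at 162 and 289 nt. Downstream, the member on chromosome 17 at 56746867, minus strand, was read 27 times and 1 time (14.0, 2.30 to 571), 177 nt from its dominant site, and that on chromosome 10 at 79720784, minus strand, 19 times and 1 time (9.82, 1.56 to 408). The member on chromosome 2 at 103294010, minus strand, had 24 and 3 reads at a single position (4.13, 1.26 to 21.5).

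In the other direction, the upstream member on chromosome 1 at 94336284, minus strand, had 0 CU5T45 and 20 oligo(dT)10-25 reads, spread over 7 positions across 46 nt. It was at least 9.55-fold lower by its 95% interval, and 12.9-fold lower with the 0 set to 3 reads, 215 nt from a dominant site with a ratio of 1.30. The upstream member on chromosome 18 at 73798440, minus strand, had 5 and 23 reads at a single position 47 nt from its dominant site (8.90-fold lower, 3.31 to 29.97). Downstream, the member on chromosome 15 at 3230585, plus strand, lay at a single position, was read 0 and 17 times, and was at least 7.98-fold lower by its interval and 11.0-fold lower with the 0 set to 3 reads, while the dominant site 120 nt away had a ratio of 11.3. The member on chromosome 17 at 6085068, plus strand, also a single position, had 2 and 12 reads (11.6-fold lower, 2.58 to 107). The other members of these groups, on chromosomes 7 and 11 upstream and 12 and 3 downstream, were 8.71 to 11.6-fold lower.

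CstF64 was crosslinked near about as many upstream as downstream members. An alignment midpoint lay within 40 nt of the most used position, on the same strand, at 31.7% of upstream members in replicate 1 (27.7 to 36.0; 158 of 498) and 33.9% in replicate 2 (29.8 to 38.3; 169), and at 29.4% (24.4 to 34.9; 91 of 309) and 31.1% (25.9 to 36.6; 96) of downstream members. Over all autosomal clusters of 3 to 29 reads this was 20.7% in replicate 1 and 21.9% in replicate 2. Over all reads from 3 to 29, the intervals of both sides thus lay above the background, which did not hold in every read class. Their dominant sites had a midpoint more often, at 48.0% in both replicates for upstream members and 48.9% in both for downstream members. On the opposite strand the shares were 2.61% and 3.82% at upstream members and 4.53% in both replicates at downstream members. CLIP was done in C2C12 cells and cleavage was mapped in the mix, so RNA absent from C2C12 cells can have no alignment.

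Since CLIP shares were higher at dominant sites, each distance was set beside points at other places. Members at 81 to 400 nt, whose windows do not touch that of the dominant site, had a mean share over both replicates of 31.6% upstream (403 members) and 29.03% downstream (267). The point at the same distance on the other side of the same dominant site had 22.5% and 23.8%, and 9.64% and 15.9% of all such points themselves lay within 40 nt of a cluster. The same offset at the other 1407 dominant sites had 26.1% and 23.7%. In replicate 1, the upstream interval of 25.8 to 35.0 lay above the value at the same offset, 25.4%. It overlapped that of the other side, 21.8% (17.9 to 26.2). In replicate 2, which is not an independent check, the upstream interval of 28.4 to 37.8 lay above the same-offset value, 26.8%. There it did not overlap that of the other side, 23.1% (19.05 to 27.5). The downstream interval in replicate 1, 22.8 to 33.9, overlapped that of the other side, 22.5% (17.6 to 27.96). In replicate 2 they also overlapped (24.5 to 35.9, against 25.1%, 20.01 to 30.7). The downstream interval included the value at the same offset, 23.02%, in replicate 1 and lay above it, 24.4%, in replicate 2. These intervals do not use the pairing of each member with the other side of its own dominant site. By distance, upstream members had mean shares of 44.2% at 25 to 50 nt, 32.4% at 51 to 100 nt, 30.3% from there to 200 nt, 36.0% to 300 nt and 30.7% to 400 nt. The same offsets at other dominant sites had 47.6%, 37.1%, 28.3%, 24.8% and 21.2%. The upstream interval lay above the same-offset value in both replicates between 200 and 300 nt (26.4 to 44.6, against 24.4%, and 28 to 46.4, against 25.3%). Beyond 300 nt it did so in replicate 2 only, and up to 200 nt it included the value in both. Downstream members had 66.7% at 25 to 50 nt, where there were 9, then 32.8%, 24.3%, 30.6% and 32.1%, and the same offsets had 41.8%, 32.5%, 25.8%, 21.7% and 20.2%. The downstream interval included the same-offset value in both replicates up to 200 nt, and in 1 of them at each distance beyond.

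**Figure D5:**
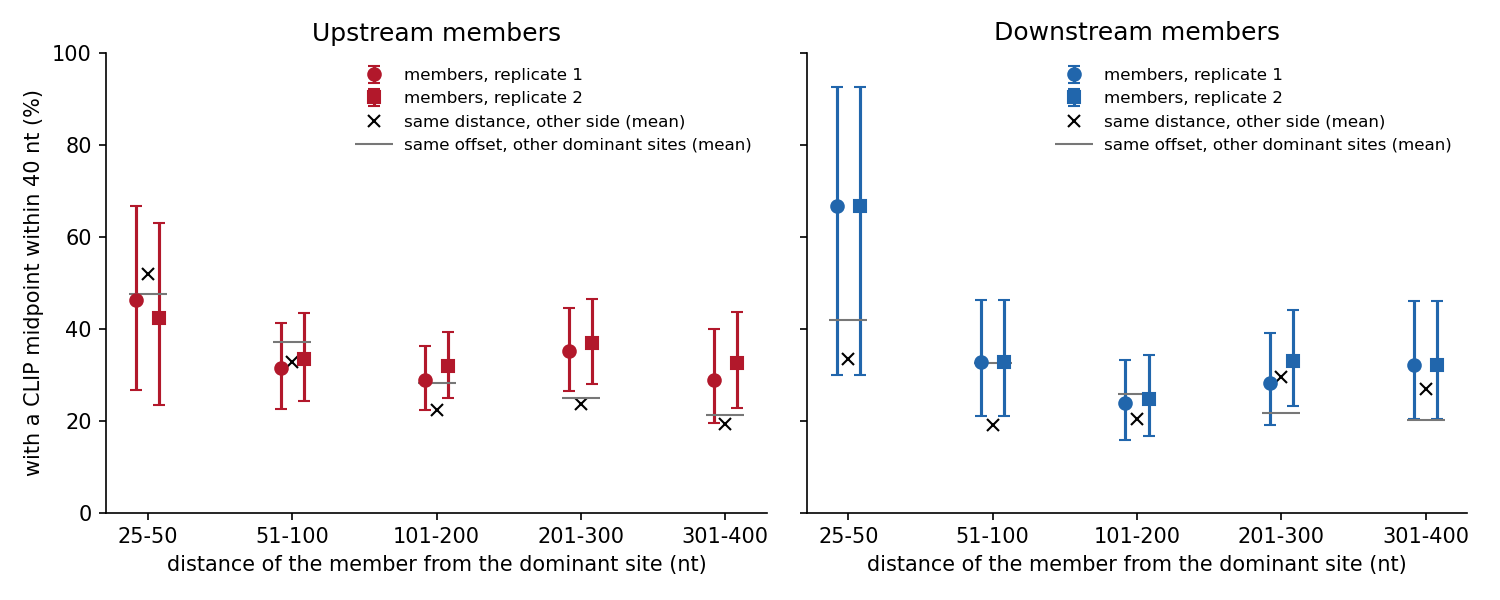
Share of upstream members (left) and downstream members (right) with a CstF64 CLIP midpoint within 40 nt (y axis, percent) by their distance from the dominant site (x axis, nt), for each replicate with 95% exact intervals, beside the mean share at the same distance on the other side of the same site (crosses) and at the same offset of other dominant sites (dashes). Between 200 and 300 nt upstream, members have a mean share of 36.0% and the same offset 24.8%.

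Members beside a dominant site with CLIP were more often crosslinked themselves. At 81 to 400 nt, where the dominant site had midpoints in both replicates, the mean share was 51.3% of 193 upstream and 48.8% of 127 downstream members. The points on the other side of those sites had 37.3% and 42.1%. Where the dominant site had 0 midpoints in both replicates, the share was 12.9% of 205 upstream and 9.33% of 134 downstream members, and the points on the other side had 8.05% and 5.22%. The direction, members above the opposite points, was found in all 4 of these groups. In replicate 1 the intervals overlapped in each, 41.5 to 56.0 against 29.5 to 43.5 at upstream members beside a site with CLIP. In replicate 2 they did not overlap in that group (46.6 to 61.1 against 31.45 to 45.6) and overlapped in the others. Within the window, midpoints lay upstream of the member's most used position at 22.4% of upstream and 21.0% of downstream members on average over both replicates. They lay downstream of it at 19.6% and 16.7%.

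By reads, upstream members had 36.5% at 3 or 4 reads, 32.4% at 5 to 9 and 27.5% at 10 to 29, with overlapping intervals. Downstream members had 24.7%, 34.1% and 31.1%, and distant clusters 17.8%, 20.7% and 25.8%. In replicate 1 the upstream interval lay above the share of the distant clusters at 3 or 4 reads (29.5 to 42.9, against 17.3%) and at 5 to 9 (24.2 to 39.3, against 20.1%). At 10 to 29 reads it included that share, with 25.2% (18.02 to 33.5) at upstream members, against 25.1%. The downstream interval included the share of the distant clusters at 3 or 4 reads (15.8 to 34.3) and at 10 to 29 (21.4 to 39.2), and lay above it at 5 to 9 (24.8 to 43.4).

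A few members held much of the CLIP signal. The 20 members with most midpoints held 38.4% of the 1033 midpoints of replicate 1. Among upstream members over 80 nt from their dominant site, that on chromosome 6 at 4490838, plus strand, had most, with 46 and 56 midpoints in replicates 1 and 2, against 6 and 8 at the same distance on the other side. It had 9 reads, 171 nt from a dominant site of 13534 reads. The member on chromosome 11 at 50013926, minus strand, had 35 and 47 midpoints, against 1 and 2, and that on chromosome 11 at 55208328, minus strand, 26 and 33, against 1 in each. The member on chromosome 19 at 5842404, minus strand, had 19 and 22 midpoints, fewer than the 28 and 34 on the other side. Downstream, the member on chromosome 15 at 36700215, minus strand, had 30 and 37 midpoints, against 13 and 14 on the other side, 309 nt from its dominant site. It was captured mostly with CU5T45, with 20 and 3 reads. The downstream members on chromosome 1 at 134010109, minus strand, and chromosome 15 at 102329572, plus strand, had 19 and 20, and 15 and 21 midpoints, against 1 and 1, and 1 and 2. The upstream member on chromosome 5 at 65986281, plus strand, had 20 and 29, against 2 in each, and the downstream members on chromosome 9 at 120041021, plus strand, and 96233160, minus strand, had 11 and 15, against 0 and 1, and 11 and 13, against 15 and 22. These 10 members were chosen for their CLIP and the points on the other side were not, which by itself favours more midpoints at the member. The comparison is thus a description only: 8 had more midpoints than the other side in both replicates and 2 had fewer.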

How the data were processed

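The deposited values are raw read counts, whole numbers per cleavage position (3'READS) or per distinct alignment (CLIP), with no normalization stated per the labels. The submitters' processing notes name mm9, Bowtie and Novoalign, and read filters are not given in the sources used here. Per the labels' protocols, 3'READS libraries had 12 PCR cycles and 72 nt reads. Members and lists were chosen with earlier results of these data known.

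Positions were chained with Python 3.11.15, numpy 2.4.6, pandas 2.3.3 and scipy 1.17.1, and plotted with matplotlib 3.10.9. Ties of the top position went to the most upstream one, and each member was assigned to its nearest dominant site (20 had 2 within 400 nt). The oligo ratio is the share of library reads in CU5T45 over that in oligo(dT)10-25, with an exact conditional binomial interval. Shares have Clopper-Pearson intervals of 95%. CLIP alignments were counted by midpoint, each once. Positions are exact to within 1 nt. The scripts were tested on simulated data.

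Named sites are the 6 dominant sites with most members and the 6 with most reads, the members of 10 or more reads with an interval excluding 1 and the 4 highest and 4 lowest ratios on each side, and the 5 on each side over 80 nt away with most CLIP in the lower replicate. Motifs were not analysed here. The read classes, widths, window lengths and the split by CLIP at the dominant site were chosen after seeing the data.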

Additional observations from a re-analysis of the deposited data

How the results depend on the processing

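Upstream share, distance, oligo ratio and CLIP share were recomputed with chaining gaps of 12 and 40 nt, other minimum reads, distances, single positions, and other CLIP windows and placements. The strand excess, shares by reads, spans, seen-with-both share and the ratio beside dominant sites under 0.5 had fewer alternatives. Same-top shares, densities and CLIP at comparison points had none. Of 127 recomputed values, 99 stayed within the counting interval of the value reported. A turn of direction was counted only for results whose reported interval excluded equality. These were the upstream share of members, that at 3 to 4 reads, the strand excess and the ratio beside dominant sites under 0.5. Of their recomputed values, 0 turned. The other results, among them CLIP shares, distances and the oligo ratio of each side, could not count as turned. With a minimum of 5 or 10 reads, the upstream share was 56.8% and 54.1%, and with single positions 66.5%. In oligo(dT)10-25 alone the upstream share at 3 to 4 reads was 54.6%. The upstream median distance was 132 nt and 189.5 nt with gaps of 12 and 40 nt, 184.5 nt with dominant sites of 5000 reads and 184 nt from 5 reads. At 81 to 400 nt it was 198 nt, and at 25 to 200 nt 110 nt, beside 116.5 nt downstream, which follows from those limits. The median span of upstream members of 10 to 29 reads was 12 nt and 26.5 nt with gaps of 12 and 40 nt.

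The oligo ratio upstream was 0.947 with dominant sites of 500 or more reads, 1.19 with 5000, and 1.41 with each position counted once; its side of 1 thus depends on the setting, and without the 10 dominant sites with most members it was 1.08 (1.01 to 1.16), with an interval that excludes 1. The median over members, with 0.5 reads added to each count, was 1.14 upstream and 0.861 downstream. With each position counted once, the downstream ratio was 1.07 (0.945 to 1.20). The same-strand excess was 17.1-fold with dominant sites of 5000 reads and 7.12-fold from 10 reads. The CLIP share upstream was 27.5% from 10 reads, and downstream 22.1% with dominant sites of 5000 reads. Windows of 20 nt gave 22.7% upstream and 20.4% downstream, windows of 60 nt 42.5% and 38.3%, and any overlap 42.3% and 38.0%, as their width implies. Leaving out either CLIP replicate gave 31.7 to 33.9% upstream and 29.4 to 31.1% downstream. The replicates count as 1 sample, so this is no independent check. With CU5T45 thinned to the other depth, 69.6% of members were seen with both oligos, against 78.3%. For the other changes the cause was not tested. At 3 to 29 reads, single members have wide intervals.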
